A study of Mus musculus with 16 samples.

Results

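A set of 10 genes of the eIF2 cycle was followed across all 4 groups of an RNA-seq experiment on mouse hepatoblasts treated with sorafenib. They were taken by name, as the rows of the deposited count table for the 4 eIF2 kinases (Eif2ak1, Eif2ak2, Eif2ak3 and Eif2ak4), the constitutive phosphatase subunit Ppp1r15b, the eIF2 subunits Eif2s1 and Eif2s2 and the eIF2B subunits Eif2b1, Eif2b4 and Eif2b5, 10 of the 40840 genes in the table. The study asked how sorafenib, a multikinase inhibitor used in liver cancer, affects the mitochondria and metabolism of hepatocellular carcinoma cells. All 16 libraries came from the p53-/-; Myc hepatoblast line, a single line of mouse liver progenitor cells that is knockout for the tumor suppressor p53 and overexpresses the Myc oncogene, so that both alterations were also present in the controls. The groups were DMSO, the vehicle, and 8.5 µM sorafenib, each given for 48 hours and for 7 days, and each had 4 replicates. The labels do not state that replicates were separate cultures, and the p-values therefore measure the spread between these libraries, which may be technical.

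Phosphorylation of the α subunit of the translation initiation factor eIF2 is the common step of the integrated stress response. The 4 eIF2 kinases carry it out, each with its own input: HRI (Eif2ak1) responds to heme shortage and to mitochondrial stress relayed by OMA1 and DELE1, PKR (Eif2ak2) to double-stranded RNA, PERK (Eif2ak3) to unfolded proteins in the endoplasmic reticulum, and GCN2 (Eif2ak4) to amino acid shortage. Phosphorylated eIF2 blocks its exchange factor eIF2B, general translation falls, and mRNAs with upstream reading frames such as Atf4 are translated. Phosphatase complexes built on Ppp1r15a or Ppp1r15b remove the phosphate. These are events on protein, and mRNA levels do not show kinase activity or eIF2 phosphorylation.

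The 250 bases before the annotated start of 2 members are given, read from GRCm39 at the canonical transcript of GENCODE vM39. Eif2s2 had the largest response to sorafenib among the 10 genes at 48 hours, and Eif2ak1 the largest fall among the kinases at 7 days. The windows are chr2:154734856-154735105 on the minus strand for Eif2s2 and chr5:143803280-143803529 on the plus strand for Eif2ak1, each written 5′ to 3′ along the gene.
Eif2s2: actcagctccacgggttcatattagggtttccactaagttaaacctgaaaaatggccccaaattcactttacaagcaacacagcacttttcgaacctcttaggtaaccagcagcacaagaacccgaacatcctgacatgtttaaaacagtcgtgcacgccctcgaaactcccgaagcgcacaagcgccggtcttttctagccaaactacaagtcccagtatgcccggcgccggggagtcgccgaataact
Eif2ak1: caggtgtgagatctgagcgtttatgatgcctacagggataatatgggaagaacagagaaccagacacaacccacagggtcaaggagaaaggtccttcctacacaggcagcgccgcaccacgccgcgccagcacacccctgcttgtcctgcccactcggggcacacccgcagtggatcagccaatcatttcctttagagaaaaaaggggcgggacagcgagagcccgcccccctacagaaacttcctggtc

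The 16 libraries held 16586254 to 30828427 counts each. All 10 members passed the filter of at least 10 counts in total, which left 20444 genes for testing, and a member had 404 to 9104 raw counts in a library. In 1 library, sorafenib for 48 hours replicate 2, genes on chromosomes 15 to 19 and X stood at 0.604 times their level relative to chromosomes 1 to 13, against 0.997 to 1.05 in the other 15 libraries. Eif2ak2 on chromosome 17 and Eif2b5 on chromosome 16 lie in this region, and their 48-hour responses are given with and without that library. Genes on chromosomes 1 to 13, where the other members lie, were not unaffected. After normalization they stood a median of 0.089 on the log2 scale above the other sorafenib libraries of 48 hours. The cells were checked against marker genes of liver epithelium. Dlk1 (3488 to 38122 counts) and Krt19 (865 to 3013 counts) were present, whereas Hnf4a was at 0 in every library and Alb (0 to 1) and Afp (0 to 14) were at or near 0. Of the leukocyte and endothelial markers, Ptprc (0 to 4 counts), Lyz2 (0 to 1) and Pecam1 (0 to 9) were near 0, whereas Cd68 had 47 to 91 counts, Csf1r 3 to 95 and Kdr 26 to 270. Among 5 stellate cell and fibroblast markers, the collagen genes Col1a1 and Col3a1 had 39863 to 81817 and 8944 to 82364 counts. Pdgfrb had 434 to 2011 and Des 12 to 114, and Lrat was at 0 in every library. Of the 10 liver epithelium markers, 4 were under 1 CPM (counts scaled to the library total) in every library. Their sum was mostly Dlk1, which had 1272 to 1365 CPM with DMSO and 374 to 462 CPM with sorafenib at 48 hours, and 618 to 709.7 CPM and 156 to 164 CPM at 7 days. Sox9 ran the other way, with 7.55 to 10.27 and 22.7 to 27.96 CPM at 48 hours and 13.1 to 14.8 and 33.8 to 37.7 CPM at 7 days. The 5 endothelial markers together had 2.43 to 4.08 CPM with DMSO and 4.79 to 6.39 CPM with sorafenib at 48 hours, and 1.68 to 2.84 and 8.16 to 9.44 CPM at 7 days. Of the 5, 4 were under 1 CPM in every library, and the rise was mostly that of Kdr. Kdr had 1.68 to 2.71 and 4.31 to 5.67 CPM at 48 hours. At 7 days it had at most 1.40 CPM with DMSO and at least 7.31 CPM with sorafenib. At 48 hours Stab2 was also higher with sorafenib, whereas Tek was lower (0.53 to 0.92 and 0.088 to 0.40 CPM). For the stellate cell and fibroblast markers the sum was 4576 to 4741 CPM with DMSO and 4720 to 5413 with sorafenib at 48 hours. At 7 days it was 3340 to 3530 and 2494 to 2548 CPM. Within this list Col1a1 was higher with sorafenib at 7 days (1605 to 1712 and 2066 to 2127 CPM). Col3a1 (1694 to 1819 and 400 to 419 CPM), Pdgfrb and Des were lower. The part of these shifts in the results for the eIF2 genes was not tested, and in bulk RNA a change in the proportion of cells and a change in RNA per cell cannot be told apart.

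Levels are given as normalized read counts, counts corrected for library size and TMM factor and scaled to the geometric mean of all libraries. Fold changes are log2 values of sorafenib over DMSO with their standard error (SE), and a call is an FDR under 0.05 by Benjamini-Hochberg over all 20444 genes, from the quasi-likelihood test of edgeR. After 48 hours of sorafenib, 4 of the 10 members rose (Ppp1r15b, Eif2s1, Eif2s2 and Eif2b5) and 3 fell (Eif2ak1, Eif2ak3 and Eif2b4), against 54.6% of all tested genes called in either direction, 26.9% higher and 27.7% lower. Leaving out sorafenib replicate 2 made this 5 and 3, with Eif2ak2 added to those that rose. After 7 days, 3 rose (Eif2s1, Eif2s2 and Eif2b5) and 5 fell (Eif2ak1, Eif2ak3, Ppp1r15b, Eif2b1 and Eif2b4), against 56.8% of all tested genes called, 28.9% higher and 27.9% lower. Among the 5988 genes with a mean level within the members' range, 77.0% were called at 48 hours and 77.1% at 7 days, and the 7 and 8 members called are near this background. The members' median log2 fold change was 0.10 at 48 hours, with −0.05 over all tested genes, and −0.04 at 7 days, with 0.02 over all tested genes. The DMSO and sorafenib groups did not overlap for 5 members at 48 hours, with 48.0% of all tested genes, and for 8 members at 7 days, with 56.8% of all tested genes.

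**Figure D1:**
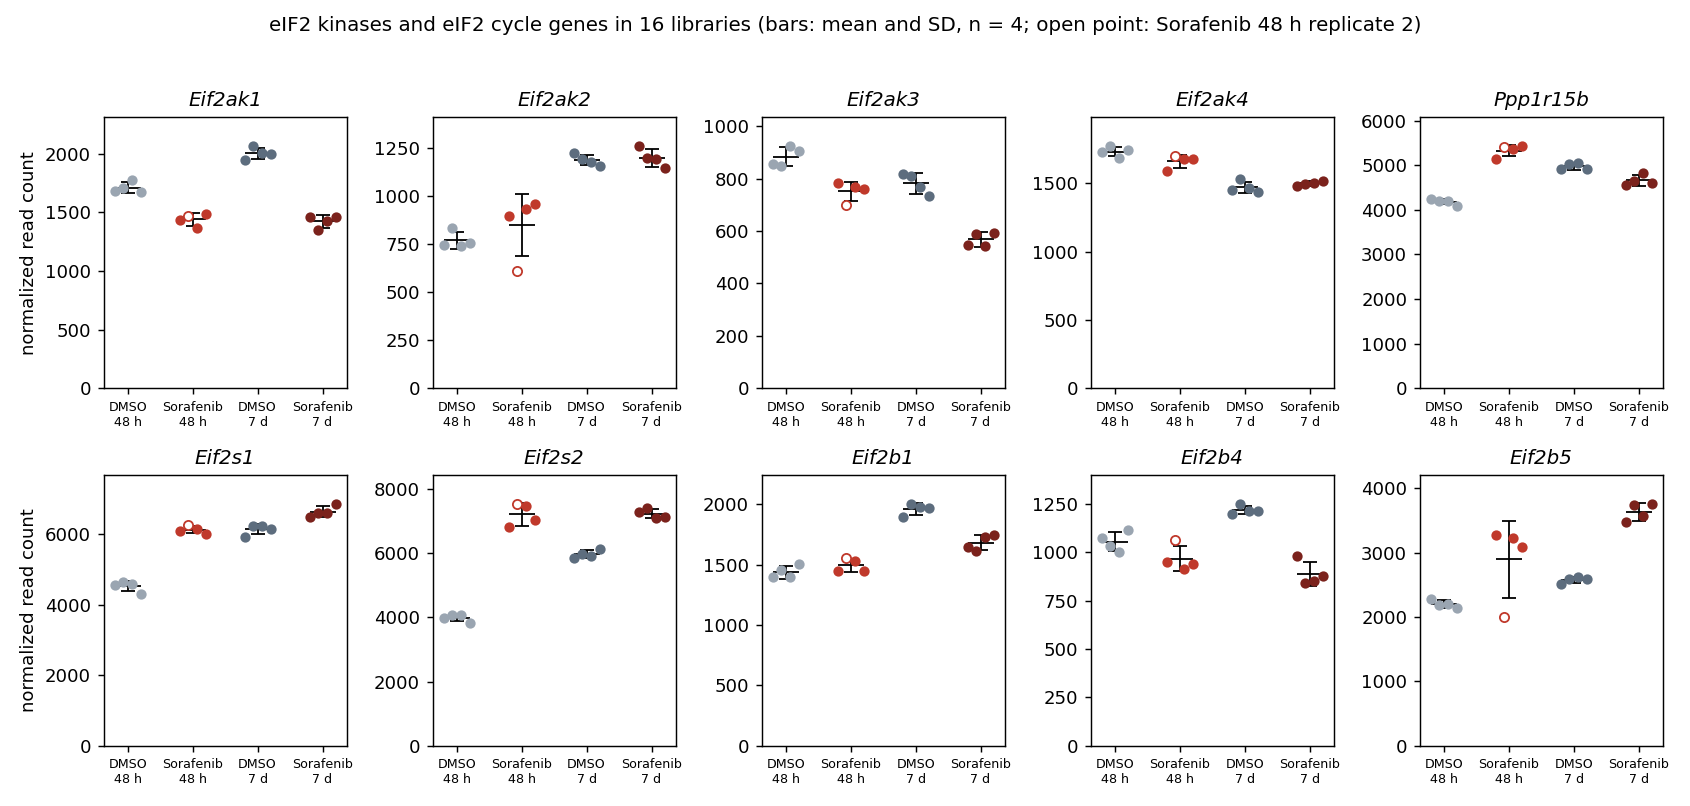
Normalized read count of each of the 10 eIF2 genes (vertical axis, from 0) in the 4 groups (horizontal axis), with 1 point per library and bars for the mean and SD of 4 libraries. The open point is sorafenib for 48 hours replicate 2, which lies apart for Eif2ak2 (611) and Eif2b5 (2001), whereas Eif2s2 and Eif2s1 are higher with sorafenib than with DMSO in every library at both time points.

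Of the kinases, Eif2ak1 and Eif2ak3 had less mRNA with sorafenib at both time points, and Eif2ak4 did not pass the test at either. Eif2ak1 (chr5:143803530-143843661, plus strand) encodes HRI. Its normalized counts at 48 hours were 1679, 1706, 1773 and 1669 with DMSO and 1431, 1469.8, 1367 and 1486 with sorafenib. At 7 days they were 1945, 2063, 2006 and 1993 with DMSO and 1460.0, 1346, 1426 and 1456 with sorafenib. Every sorafenib library was below every DMSO library of its time point, and the DMSO libraries at 48 hours were all below those at 7 days. The mean fell from 1707 ± 46.8 to 1438 ± 52.9 (SD, n = 4) at 48 hours, a log2 fold change of −0.25 (SE 0.0385, edgeR FDR 1.44e-05). At 7 days it fell by 29.03%, from 2002 ± 48.4 to 1422 ± 53.00 (SD, n = 4; log2 fold change −0.49, SE 0.0379, edgeR FDR 6.1e-10). The exons of Eif2ak1 share 2578 bases with the antisense gene Aimp2, and the strand setting of the counting is not given in the sources used here, so reads of the pair may not have been told apart.

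Eif2ak3 (chr6:70821461-70882235, plus strand) encodes PERK, the kinase that sits in the membrane of the endoplasmic reticulum. At 48 hours its normalized counts were 854, 850.2, 924 and 906 with DMSO and 783, 700.1, 767 and 761 with sorafenib, and at 7 days 819.6, 810.4, 767 and 734 with DMSO and 546, 589.6, 541 and 594 with sorafenib. The groups did not overlap at either time point, and the 7-day sorafenib libraries were the lowest of all 16. The log2 fold change was −0.23 (SE 0.051, edgeR FDR 0.000697) at 48 hours and −0.46 (SE 0.0514, edgeR FDR 1.68e-07) at 7 days. Means were 884 ± 37.1 and 753 ± 36.3 at 48 hours and 783 ± 39.96 and 568 ± 28.1 at 7 days (SD, n = 4 each).

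Eif2ak2 (chr17:79159972-79190012, minus strand) encodes PKR, itself a gene induced by interferon in many cells. Its normalized counts at 48 hours were 746, 835, 739 and 754 with DMSO and 895, 611, 931 and 957 with sorafenib. The 611 of sorafenib replicate 2, the library with lowered counts in this region of the genome, was below every DMSO library, and the other 3 sorafenib libraries were above every DMSO library. With all libraries Eif2ak2 did not pass the test at 48 hours (log2 fold change 0.15, SE 0.0903, edgeR FDR 0.169). Leaving that library out gave a log2 fold change of 0.27 (edgeR FDR 1.61e-06), with a mean of 928 ± 31.2 (SD, n = 3) for sorafenib. At 7 days the counts were 1224, 1192, 1177 and 1158 with DMSO and 1259, 1195, 1195 and 1146 with sorafenib, and the groups overlapped. The 7-day log2 fold change was 0.01 with a 95% interval of −0.15 to 0.18 (edgeR FDR 0.906). This interval rests on a spread estimated over all 16 libraries, among them sorafenib for 48 hours replicate 2. Without that library the 7-day value was 0.01 (edgeR FDR 0.787).

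Eif2ak4 (chr2:118218950-118305868, plus strand) encodes GCN2. It ranged over the least of the 10 genes, with its highest group mean at 1.18 times its lowest. Normalized counts at 48 hours were 1732, 1773, 1688 and 1745 with DMSO and 1591, 1698, 1679 and 1682 with sorafenib. At 7 days they were 1455, 1532, 1467 and 1439 and 1478, 1497, 1506 and 1519. The groups overlapped at both time points. The log2 fold change was −0.06 at 48 hours, with a 95% interval of −0.13 to 0.01 (edgeR FDR 0.138), and 0.03 at 7 days, with an interval of −0.04 to 0.09 (edgeR FDR 0.543). The 48-hour value passed the threshold in 10 of 25 alternatives, with log2 fold changes from −0.13 to −0.02 over all 25. Among these were the fits without DMSO for 48 hours replicate 1, 3 or 4 (−0.09, −0.11 and −0.09) and without sorafenib for 48 hours replicate 3 or 4 (−0.09 and −0.10).

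To compare the kinases with each other, counts were divided by the exon length of the canonical transcript and each kinase was given as a share of the sum of the 4 in its library. With this length Eif2ak1 had the largest share in every group mean, 36.1 ± 0.795% with DMSO at 48 hours and 39.00 ± 0.781% at 7 days (SD, n = 4 each). The order turned with other lengths. With counts not divided by length Eif2ak4 had the largest share in every group but DMSO for 7 days, with the union of exons Eif2ak2 had it in every group but DMSO for 48 hours, and with coding length Eif2ak2 had it in sorafenib for 7 days. At 7 days sorafenib went with a lower share of Eif2ak1 (32.4 ± 0.878%) and of Eif2ak3 (from 14.5 ± 0.546% to 12.3 ± 0.676%), and with a higher share of Eif2ak2 (from 23.1 ± 0.516% to 27.3 ± 0.974%) and of Eif2ak4 (from 23.4 ± 0.235% to 27.9 ± 0.521%). For each of the 4 the groups did not overlap, and the exact two-sided permutation test gave p = 0.0286, the smallest that 4 against 4 allows, which is 0.0571 after Benjamini-Hochberg adjustment over the 8 comparisons of shares and so misses the threshold. The shares are parts of 1 sum, so a fall in some raises the others, and the 4 tests are not independent. In normalized counts Eif2ak2 and Eif2ak4 were not called at 7 days (log2 fold changes 0.01 and 0.03, edgeR FDR 0.906 and 0.543). At 48 hours the groups overlapped for all 4 shares, with exact permutation p of 0.0571 to 0.229 (adjusted 0.0914 to 0.229). For Eif2ak1 and Eif2ak2 they overlapped through sorafenib replicate 2 alone. Without that library the share of Eif2ak1 was 36.1% with DMSO and 32.2 ± 0.958% with sorafenib (SD, n = 3), and that of Eif2ak2 was 16.2% and 20.9 ± 0.374%. Each then had p = 0.0286 by an exact two-sided permutation test on the absolute difference of means, and the adjusted p was 0.0381 for both and for the 4 shares at 7 days. The summed kinase level per kilobase was 1089.5 ± 14.8 with DMSO and 1004 ± 38.9 with sorafenib at 48 hours, and 1183 ± 24.1 and 1009.5 ± 11.99 at 7 days (SD, n = 4).

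**Figure D2:**
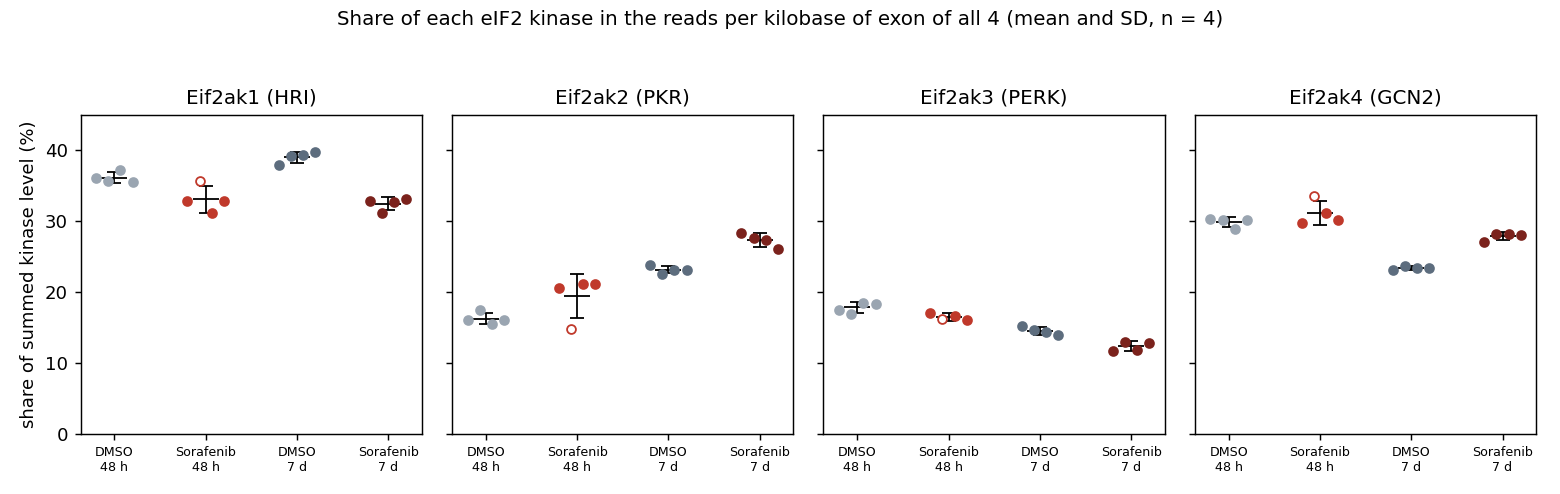
Share of each kinase in the summed reads per kilobase of the 4 eIF2 kinases (vertical axis, percent) in the 4 groups, with 1 point per library and bars for the mean and SD of 4 libraries. At 7 days the shares of Eif2ak1 and Eif2ak3 are lower and those of Eif2ak2 and Eif2ak4 higher with sorafenib, and the open point is sorafenib for 48 hours replicate 2. The shares are parts of the same sum, so a fall in some raises the others.

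The genes whose levels followed each kinase most closely were found by Pearson's r of log2 CPM over the 16 libraries, among 10636 genes averaging 100 or more normalized counts. They were Srrt (r = 0.978), Peli1 (0.978) and Knop1 (0.977) for Eif2ak1, Asxl3 (0.987), Tmem263 (0.980) and Kyat3 (0.971) for Eif2ak3, and Prcp (0.971), Zfp110 (0.963) and Eef1b2 (0.963) for Eif2ak4. The 3 genes nearest Eif2ak2, Nubp2 (0.977), Ctdp1 (0.976) and 4930453N24Rik (0.975), all lie on chromosomes 16 to 18, within the region lowered in sorafenib for 48 hours replicate 2. Without that library Nufip2 (0.988), Psmd2 (0.985) and Cul3 (0.980) took their place. The 16 libraries share their 4 groups, so these values describe a likeness of group pattern and were given no p.

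Ppp1r15b (chr1:133058881-133067539, plus strand), the regulatory subunit that keeps eIF2 dephosphorylated in unstressed cells, moved in opposite directions at the 2 time points. Normalized counts at 48 hours were 4239, 4195, 4205 and 4096 with DMSO and 5135, 5401, 5367 and 5429.8 with sorafenib. At 7 days they were 4917, 5023, 5049 and 4914 with DMSO and 4552, 4657, 4837 and 4615 with sorafenib. Every sorafenib library was above every DMSO library at 48 hours and below every DMSO library at 7 days. Ppp1r15b rose by 27.5% at 48 hours (log2 fold change 0.35, SE 0.0292, edgeR FDR 2.39e-09). It fell by 6.24% at 7 days (log2 fold change −0.09, SE 0.029, edgeR FDR 0.01). The fall at 7 days did not pass the threshold when libraries were scaled by total counts (log2 fold change −0.07, FDR 0.0934) or when no filter was used (−0.07, FDR 0.0646).

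The inducible partner Ppp1r15a (GADD34), which restores translation late in the stress response, stood at 406 ± 10.02 with DMSO and 2615 ± 225 with sorafenib at 48 hours, and at 393 ± 27.1 and 3354 ± 56.0 at 7 days (SD, n = 4). Its log2 fold change was 2.69 (SE 0.0574, edgeR FDR 1.44e-18) at 48 hours and 3.09 (SE 0.0574, edgeR FDR 1.46e-19) at 7 days. Per kilobase of exon, Ppp1r15a made up 18.9 ± 0.522% of the summed level of Ppp1r15a and Ppp1r15b with DMSO and 54.1 ± 2.14% with sorafenib at 48 hours (SD, n = 4; exact two-sided permutation p = 0.0286, adjusted p = 0.0286). At 7 days the share was 15.97 ± 0.921% and 63.4 ± 0.980% (SD, n = 4), with the same exact permutation p. With this length most of the summed level was Ppp1r15b with DMSO and Ppp1r15a with sorafenib. In normalized counts not divided by length, Ppp1r15b was above Ppp1r15a in all 4 groups. With sorafenib the means of Ppp1r15b and Ppp1r15a were 5333 and 2615 at 48 hours and 4665 and 3354 at 7 days.

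Both eIF2 subunits among the members had more mRNA with sorafenib at both time points, and Eif2s2 had the largest fold change of the 10 genes at 48 hours. Eif2s2 (chr2:154713330-154734855, minus strand) encodes the β subunit, which contacts the initiator tRNA and eIF5. Its normalized counts at 48 hours were 3996, 4073, 4068 and 3835 with DMSO and 6808, 7538, 7459.9 and 7035 with sorafenib. At 7 days they were 5856, 5976, 5928 and 6135 with DMSO and 7297, 7394, 7094 and 7130.0 with sorafenib. The DMSO libraries at 48 hours were the lowest of all 16, and the sorafenib libraries of the 2 time points overlapped. The log2 fold change was 0.85 (SE 0.0347, edgeR FDR 2.85e-14), a rise of 80.6%, at 48 hours and 0.28 (SE 0.0342, edgeR FDR 7.62e-07), a rise of 21.00%, at 7 days.

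Eif2s1 (chr12:78907681-78935018, plus strand) encodes the α subunit, the target of the 4 kinases. At 48 hours its normalized counts were 4559.9, 4634, 4576 and 4307 with DMSO and 6092, 6253, 6137 and 6006 with sorafenib, and at 7 days 5926, 6234, 6236 and 6152 with DMSO and 6495, 6589.8, 6604 and 6854 with sorafenib. The groups did not overlap at either time point. The log2 fold change was 0.44 (SE 0.0308, edgeR FDR 1.75e-10) at 48 hours and 0.11 (SE 0.0305, edgeR FDR 0.00361) at 7 days. Eif2s1 shares 1607 exon bases with the antisense gene Plek2 and 727 with Atp6v1d. Per kilobase of exon, the summed level of Eif2s1 and Eif2s2 was 2898 ± 85.8 with DMSO and 4634 ± 160 with sorafenib at 48 hours, and 4152 ± 76.0 and 4792 ± 49.5 at 7 days (SD, n = 4).

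The 3 members that encode subunits of eIF2B, the exchange factor that reloads eIF2 with GTP, did not move together. Its subunits Eif2b2 and Eif2b3 are not members and are given below with the other genes of the cycle. Eif2b5 (chr16:20317240-20330928, plus strand) encodes the catalytic ε subunit. Its normalized counts at 48 hours were 2286, 2180.1, 2207 and 2140.4 with DMSO and 3279, 2001, 3221 and 3082 with sorafenib, and at 7 days 2512, 2595, 2615 and 2591 and 3477, 3737, 3568 and 3759. At 48 hours the groups overlapped through sorafenib replicate 2 alone (2001), and at 7 days they did not overlap. Eif2b5 rose at both time points, with a log2 fold change of 0.40 (SE 0.0965, edgeR FDR 0.00153) at 48 hours and 0.50 (SE 0.095, edgeR FDR 0.000151) at 7 days. Without sorafenib replicate 2 the 48-hour value was 0.54, and the sorafenib mean 3194 ± 101 (SD, n = 3).

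Eif2b4 (chr5:31344902-31350774, minus strand) encodes the δ subunit and Eif2b1 (chr5:124705658-124717194, minus strand) the α subunit, both of the regulatory part of eIF2B that senses phosphorylated eIF2. Normalized counts of Eif2b4 at 48 hours were 1076, 1032, 1001 and 1115 with DMSO and 951, 1063, 916 and 938 with sorafenib, and at 7 days 1198, 1251, 1213 and 1212 and 979.7, 842, 851 and 877. The groups overlapped at 48 hours through sorafenib replicate 2 alone (1063), and at 7 days they did not overlap. Eif2b4 fell at both time points, with a log2 fold change of −0.13 (SE 0.054, edgeR FDR 0.0475) at 48 hours and −0.46 (SE 0.0529, edgeR FDR 2.62e-07) at 7 days. Without sorafenib for 48 hours replicate 2 the 48-hour value was −0.18 (edgeR FDR 0.00091). With all 16 libraries the 48-hour call is close to the threshold. It was lost with the replicate number as a block (FDR 0.0794), without a filter (FDR 0.178), and in 9 of the 16 fits that each leave out 1 library, with log2 fold changes of −0.14 to −0.13 in those 9. These 9 fits left out DMSO for 48 hours replicate 2 or 4, sorafenib for 48 hours replicate 3, any library of DMSO for 7 days, or sorafenib for 7 days replicate 3 or 4.

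Normalized counts of Eif2b1 at 48 hours were 1396, 1455, 1396 and 1508 with DMSO and 1448, 1556, 1529 and 1450.3 with sorafenib, and at 7 days 1896, 2004, 1976 and 1969 and 1646, 1615, 1728 and 1746. The groups overlapped at 48 hours and did not at 7 days. The log2 fold change was 0.06 at 48 hours, with a 95% interval of −0.02 to 0.13 (edgeR FDR 0.259), and Eif2b1 fell at 7 days, with −0.22 (SE 0.0388, edgeR FDR 5.84e-05). Eif2b1 shares 2484 exon bases with the antisense gene Ddx55. At 7 days the largest fall (Eif2b4) and the largest rise (Eif2b5) of these 3 subunits were of similar size on the log2 scale. The summed level of Eif2b1, Eif2b4 and Eif2b5 per kilobase was 2585 ± 48.2 with DMSO and 2697 ± 50.2 with sorafenib (SD, n = 4). This sum leaves out Eif2b2 and Eif2b3, which both rose at 7 days.

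**Figure D3:**
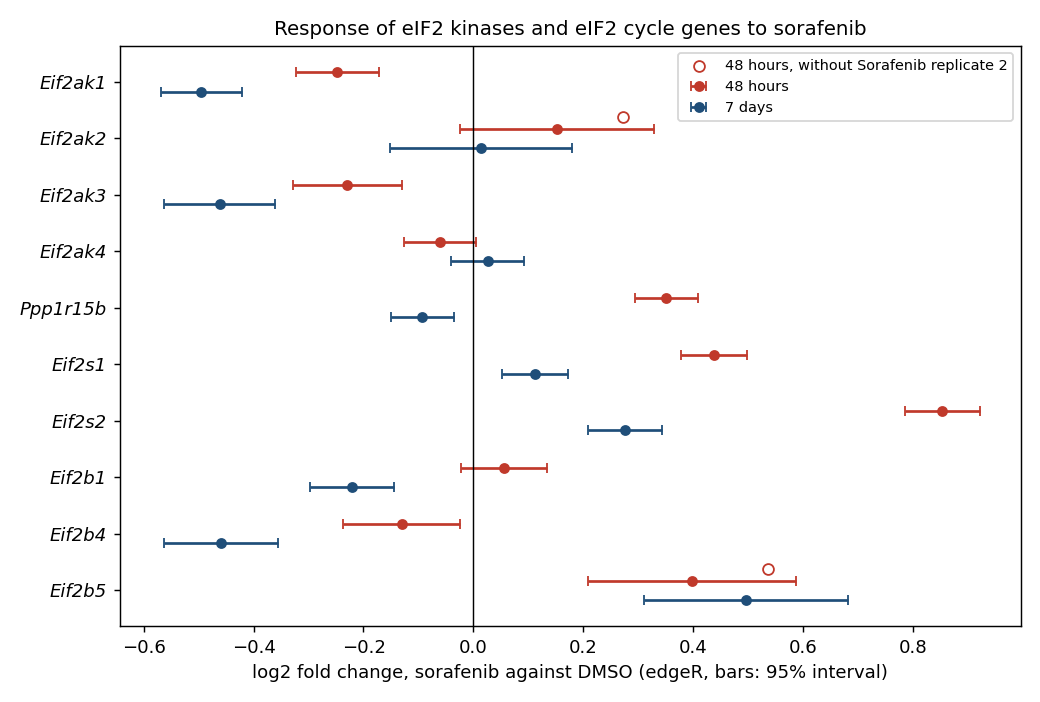
Log2 fold change of sorafenib over DMSO for the 10 eIF2 genes at 48 hours and 7 days (horizontal axis), with bars for the 95% interval from edgeR and open points for 48 hours without sorafenib replicate 2. Eif2s2 lies farthest to the right at 48 hours (0.85), Eif2ak1 farthest to the left at 7 days (−0.49), and Ppp1r15b lies on opposite sides of 0 at the 2 time points.

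The difference between the 7-day and the 48-hour response was tested as the interaction of treatment and time. For 7 of the 10 members the response was lower at 7 days, and for 0 it was higher by edgeR's test, against 36.8% of all tested genes called, 15.5% higher and 21.3% lower. Among the genes within the members' range of mean level 56.8% were called. At an unadjusted p under 0.05 edgeR also had 0 higher members, and DESeq2 called 7 lower and 0 higher, with 1 higher at an unadjusted p under 0.05. Of all genes called, 42.1% had the higher response at 7 days, a split that became 55.6% when libraries were scaled by total counts. The largest differences were those of Eif2s2 (−0.58, edgeR FDR 1.03e-08) and Ppp1r15b (−0.44, edgeR FDR 4.16e-08). For Eif2s1, Eif2b4, Eif2b1 and Eif2ak1 the differences were −0.33, −0.33, −0.28 and −0.25 on the log2 scale, and that of Eif2ak1 lost its call with libraries scaled by total counts (−0.15, edgeR FDR 0.0528). For Eif2ak3 the difference of −0.23 (edgeR FDR 0.0157) was lost in 7 of 24 alternatives, among them the fits without DMSO for 48 hours replicate 1 (−0.19) or without sorafenib for 48 hours replicate 1, 3 or 4 (−0.18, −0.20 and −0.20). Eif2ak2 did not pass with all libraries (−0.14, edgeR FDR 0.427) and passed without sorafenib for 48 hours replicate 2 (−0.26, edgeR FDR 0.000364).

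The DMSO groups themselves differed between the time points. From 48 hours to 7 days with DMSO, 7 members rose and 2 fell, against 49.4% of all tested genes called, 23.9% higher and 25.5% lower, and 71.6% of the genes within the members' range of mean level. The 2 groups had no overlap for all 10 members, with 50.8% of all tested genes. Eif2ak2 (0.63, edgeR FDR 4.59e-06), Eif2s2 (0.58, edgeR FDR 2.86e-11), Eif2b1 (0.45, edgeR FDR 8.24e-09) and Eif2s1 (0.44, edgeR FDR 2.92e-10) rose the most on the log2 scale. Ppp1r15b, Eif2ak1 and Eif2b4 rose by 0.25, 0.23 and 0.21. Eif2ak4 (−0.24, edgeR FDR 6.02e-06) and Eif2ak3 (−0.18, edgeR FDR 0.00587) fell. Eif2b5 had a log2 difference of 0.23 with an FDR of 0.0579, which became 3.12e-09 without sorafenib for 48 hours replicate 2. Time in culture, harvest and library preparation cannot be told apart in this comparison.

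From 48 hours to 7 days with sorafenib, 4 members rose and 3 fell, against 39.7% of all tested genes called, 17.5% higher and 22.3% lower, and 58.8% of the genes within the members' range of mean level. The groups had no overlap for 7 members and for 35.8% of all tested genes. Eif2ak2 (0.49, 0.37 without sorafenib for 48 hours replicate 2), Eif2b5 (0.32, 0.19 without it), Eif2b1 (0.17) and Eif2s1 (0.12) rose, and Eif2ak3 (−0.41), Ppp1r15b (−0.19) and Eif2ak4 (−0.15) fell. With the 8 libraries compared alone Eif2b5 was not called (0.36, edgeR FDR 0.0733). Eif2s2 and Eif2ak1 had nearly the same mean with sorafenib at both time points, 7210.1 ± 348 and 7229 ± 141 for Eif2s2 and 1438 ± 52.9 and 1422 ± 53.00 for Eif2ak1 (SD, n = 4). The 95% interval of the difference was −0.06 to 0.07 for Eif2s2 and −0.09 to 0.06 for Eif2ak1 on the log2 scale. Over the same interval their DMSO means went from 3993 ± 111 to 5974 ± 119 and from 1707 ± 46.8 to 2002 ± 48.4. The smaller response of Eif2s2 at 7 days and the larger fall of Eif2ak1 stood beside a higher DMSO level and a like sorafenib level.

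Ordered by group mean, Eif2s2 and Eif2b5 had the sequence DMSO 48 hours, DMSO 7 days, sorafenib 48 hours, sorafenib 7 days from lowest to highest. Neighbours overlapped between the sorafenib groups for Eif2s2 and between DMSO for 7 days and sorafenib for 48 hours for Eif2b5. Eif2s1 and Eif2ak2 had the sequence DMSO 48 hours, sorafenib 48 hours, DMSO 7 days, sorafenib 7 days. For Eif2s1 the middle pair overlapped, and for Eif2ak2 the pair of groups within each time point. Eif2ak1 and Eif2b4 were lowest in sorafenib for 7 days and highest in DMSO for 7 days, with the sorafenib groups overlapping each other for both genes. For Ppp1r15b no neighbouring groups overlapped, in the order DMSO 48 hours, sorafenib 7 days, DMSO 7 days, sorafenib 48 hours.

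Other genes of the same cycle were taken from a list of 14 subunits, cofactors and phosphatase parts, all tested. At 48 hours 5 rose and 4 fell, with a median log2 fold change of −0.01, and at 7 days 5 rose and 6 fell, with a median of −0.09. Of all tested genes 54.6% were called at 48 hours and 56.8% at 7 days. Within the members' range of mean level 77% and 77.1% were called. Without sorafenib for 48 hours replicate 2 the counts were 7 and 4 at 48 hours and 6 and 8 at 7 days. Ppp1r15a moved the most, followed by Eif2b3, the γ subunit of eIF2B, which rose by 1.08 (edgeR FDR 1.04e-12) at 48 hours and 0.56 (edgeR FDR 1.27e-08) at 7 days on the log2 scale. The β subunit Eif2b2 rose by 0.28 and 0.22 on the log2 scale (edgeR FDR 9.91e-06 and 0.000108). Eif2s3x, the γ subunit of eIF2, which lies on chromosome X in the lowered region, had log2 fold changes of 0.16 (edgeR FDR 0.193) and −0.11 (edgeR FDR 0.331), and without sorafenib for 48 hours replicate 2 of 0.29 (edgeR FDR 5.53e-10) and −0.12 (edgeR FDR 0.00142). The start codon factors Eif1 (0.57 and 0.47) and Eif5 (0.56 and 0.34), the latter the GTPase-activating protein of eIF2, rose at both time points on the log2 scale. The catalytic phosphatase subunits Ppp1cb (−0.30 and −0.33) and Ppp1cc (−0.55 and −0.27), Eif1ax (−0.30 and −0.58, with −0.15 at 48 hours without sorafenib replicate 2) and Eif2a (−0.29 and −0.37), an initiation factor distinct from the eIF2 complex, fell at both. Eif5b and Metap2 had −0.03 and 0.01 at 48 hours, without passing the test, and fell by 0.33 and 0.23 on the log2 scale at 7 days.

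Among 12 genes known to regulate the eIF2 kinases, all tested, 5 rose and 2 fell at 48 hours (median log2 fold change 0.13), and 6 rose and 4 fell at 7 days (median 0.08), or 7 and 2 and then 6 and 5 without sorafenib for 48 hours replicate 2. The shares of all tested genes called were 54.6% at 48 hours and 56.8% at 7 days, and 77% and 77.1% within the members' range of mean level. Adar, the RNA-editing enzyme that limits activation of PKR, rose by 0.91 (edgeR FDR 1.69e-12) and 0.86 (edgeR FDR 2.44e-12) on the log2 scale. Prkra, the protein activator of PKR, had 0.04 at 48 hours (edgeR FDR 0.576) and rose by 0.24 at 7 days (edgeR FDR 0.00048). For PERK, the chaperone Hspa5 (BiP), which holds the sensor inactive, rose by 0.49 and 0.39, and the adaptor Nck1 fell by 0.18 and 0.37 on the log2 scale. For GCN2, the inhibitor Impact rose by 0.36 and 0.82, and the activator Gcn1 rose by 0.19 at 48 hours and fell by 0.12 at 7 days on the log2 scale (edgeR FDR 0.00736). For HRI, Dele1 had 0.13 at 48 hours (edgeR FDR 0.130, and 0.23 with FDR 1.53e-06 without sorafenib for 48 hours replicate 2) and rose by 0.21 at 7 days. Oma1, the protease that cleaves DELE1, had −0.07 at 48 hours (edgeR FDR 0.431) and fell by 0.37 at 7 days (edgeR FDR 0.000166). The kinase chaperone genes Hsp90aa1 (0.47 and 0.33, both higher) and Hsp90ab1 (−0.33, lower, and −0.14, edgeR FDR 0.207) differed in direction. Without sorafenib for 48 hours replicate 2, Hsp90ab1 had −0.19 at 48 hours and −0.14 at 7 days (edgeR FDR 2.41e-10 and 1.56e-07). Impact, Tarbp2, Dele1 and Hsp90ab1 lie in the lowered region. Tarbp2 had −0.10 at 48 hours (edgeR FDR 0.356) and fell by 0.27 at 7 days (edgeR FDR 0.00882). Dnajc3, on chromosome 14, had 0.13 at 48 hours (edgeR FDR 0.333) and −0.06 at 7 days (edgeR FDR 0.661). Its 48-hour value was 0.27 without sorafenib for 48 hours replicate 2 (edgeR FDR 1.86e-09).

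Lists of genes downstream of the pathway were set beside the members. Of all tested genes, 26.9% were called higher and 27.7% lower at 48 hours, and 28.9% and 27.9% at 7 days. Of 15 genes of the ATF4 programme, 13 rose and 1 fell at 48 hours, with a median log2 fold change of 2.18, and 14 rose and 1 fell at 7 days, with a median of 1.91, where all tested genes had −0.05 and 0.02. The 3 largest at 48 hours were Trib3, a pseudokinase (4.27), Slc7a11, the cystine transporter (4.15), and Chac1, a glutathione-degrading enzyme (3.58). At 7 days they were Trib3 (3.75), Ddit3, the transcription factor CHOP (2.90), and Chac1 (2.76). Trib3 went from 294 ± 14.6 to 5666 ± 320 normalized counts at 48 hours and from 361 ± 23.7 to 4844 ± 129 at 7 days (SD, n = 4). The genes that fell were Ddit4 at 48 hours (−0.86) and Cebpb at 7 days (−0.46), both named after their values were seen. Of the 12 members of the XBP1 and ATF6 branch of the unfolded protein response, which runs parallel to PERK, 4 rose and 6 fell at 48 hours (median −0.13), and 6 rose and 6 fell at 7 days (median 0.05). Atf6 (2.29 and 1.63), Herpud1 (1.84 and 1.54) and the sensor kinase Ern1 (1.37 and 1.36) had the largest log2 fold changes.

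Of 19 interferon-stimulated genes, set beside PKR, 16 were tested, and Oas1a, Mx1 and Mx2 were not, with fewer than 10 counts in total. At 48 hours 5 rose and 2 fell (median log2 fold change 0.07), and at 7 days 14 rose and 2 fell (median 2.16). The shares of all tested genes called were 26.9% higher and 27.7% lower at 48 hours, and 28.9% and 27.9% at 7 days. Many of the interferon-stimulated genes had few counts. Isg15 went from 4.10 ± 1.82 to 89.6 ± 7.95 normalized counts at 7 days, Rsad2 from 1.65 ± 1.14 to 37.2 ± 5.18 and Ifi44 from 0.214 ± 0.428 to 36.7 ± 3.92 (SD, n = 4), and fold changes against such low counts depend on the prior count. At 48 hours Ifit2, which lies in the lowered region, rose from 155 ± 9.34 to 609 ± 158, and Oasl2 fell from 30.5 ± 8.28 to 8.16 ± 2.92 (SD, n = 4). Over the same 7-day comparison, the 95% interval of the Eif2ak2 log2 fold change was −0.15 to 0.18 with all libraries. Without sorafenib for 48 hours replicate 2 the value was 0.01 (edgeR FDR 0.787).

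**Figure D4:**
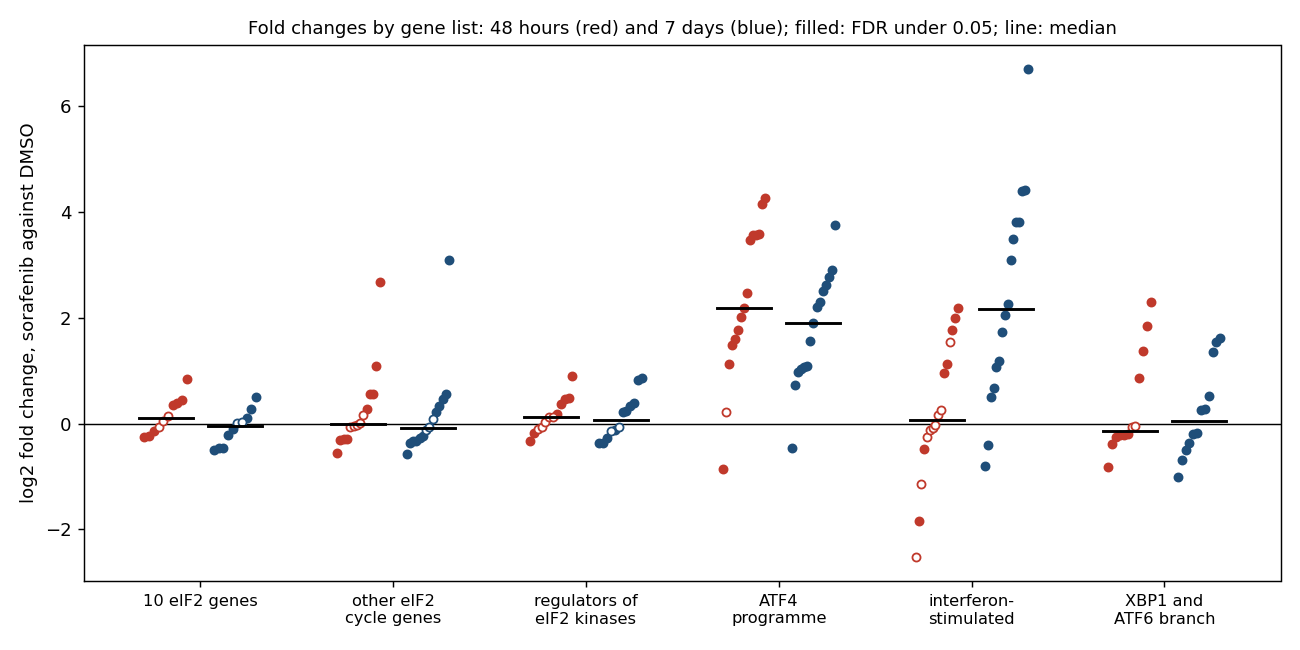
Log2 fold change of sorafenib over DMSO (vertical axis) for the genes of each list (horizontal axis) at 48 hours (red) and 7 days (blue), with filled points for genes called at an FDR under 0.05 and a line at the list's median. The 10 eIF2 genes lie between −0.49 and 0.85, whereas the ATF4 programme has medians of 2.18 and 1.91.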

How the data were processed

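The authors sequenced Illumina Stranded mRNA libraries on a NovaSeq and aligned the reads to GRCm39 with STAR 2.7.1a. The deposited values are raw counts per gene, and the submitters' processing notes also name featureCounts 2.0.6 and DESeq2 1.40.2. The strand setting and gene annotation are not given in the sources used here. Libraries held 16586254 to 30828427 counts, and 0 rows named no gene.

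Tests used edgeR 4.0.16 (quasi-likelihood test, TMM) in R 4.3.3, in 1 model over 16 libraries with a coefficient per group, after removal of 20396 genes with under 10 counts in total. The FDR was controlled by Benjamini-Hochberg over the 20444 genes left and the threshold was 0.05. Normalized counts, shares per kilobase and the exact permutation tests were as described with the results. The steps were tested on simulated data. Replicates differed beyond counting error in each group, with chi-square values of at least 1.49 per gene (1 for counting error alone). Loci and lengths came from GENCODE vM39.

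Genes named were the 10 members, any gene of the eIF2 cycle and kinase regulator lists, the 3 called genes with the largest absolute log2 fold change of each other list, and the 3 genes most like each kinase. The members and lists were chosen with earlier results of these data known. Replicate numbers, compared through deviations from group means, did not pair the libraries. Alternatives were DESeq2 1.42.0, limma voom (3.58.1) with quality weights, other size factors, other filters, a replicate block, the 8 libraries compared alone, other lengths for shares, and each library left out in turn. The union of exons as length, the test of shares with a library left out, and kinase likeness without sorafenib for 48 hours replicate 2, were added after seeing the data. Some items are not reported here.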

Additional observations from a re-analysis of the deposited data

Results flagged for a closer look

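Of 60 groups of 4 libraries examined (the members' normalized counts and the shares), 5 held a library far from the other 3, and chance alone gives about 1 in 20. Eif2ak2 was 835 in DMSO for 48 hours replicate 2, with 739 to 754 in the others. Eif2b5 was 2001 in sorafenib for 48 hours replicate 2, with 3082 to 3279 in the others, and the share of Eif2ak2 in the kinase level was 14.8% in that library, with 20.5 to 21.2% in the others. The share of Eif2ak4 was 28.8% in DMSO for 48 hours replicate 3, with 30.1 to 30.3% in the others. In sorafenib for 7 days replicate 1 it was 27.1%, with 28.1 to 28.2% in the others.

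The response to sorafenib differed between 7 days and 48 hours for 7 members by edgeR's interaction test. This test called 36.8% of all tested genes, and 56.8% of those within the members' range of mean level. On the log2 scale the 7-day response minus the 48-hour response was −0.58 for Eif2s2, −0.44 for Ppp1r15b, −0.33 for Eif2b4, −0.33 for Eif2s1, −0.28 for Eif2b1, −0.25 for Eif2ak1 and −0.23 for Eif2ak3. Causes of these differences were not tested.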

How the results depend on the processing

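Of 1240 member log2 fold changes under alternatives, 1179 kept their direction and their side of the threshold, 22 lost a call, 22 gained one and 17 changed sign, all 17 without a call. For sorafenib at 7 days against 48 hours, Eif2ak1 became 0.017 with DESeq2, 0.016 with DESeq2's size factors, 0.019 with total counts, 0.0082 with TMM from chromosomes 1 to 13, 0.036 with at least 10 counts in every sample and 0.022 with the 8 libraries alone. Leaving out 1 library gave −0.029 to 0.024 for Eif2ak1 and −0.0075 to 0.041 for Eif2s2 in that comparison, −0.0097 to 0.034 for Eif2ak2 at 7 days (the lowest without sorafenib for 7 days replicate 1), and −0.040 to 0.19 for the interaction of Eif2b5 (the lowest without sorafenib for 48 hours replicate 2). Eif2b1 at 48 hours became −0.015 with total counts. The count of members with a higher response at 7 days, 0, became 1 (Eif2ak4) with total counts (0.18), with at least 10 counts in every sample (0.15) and without DMSO for 48 hours replicate 3 (0.13), and with 1 library left out it was 0 to 1. The causes of these changes were not tested.

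The adjusted p of the kinase shares is near the threshold and passed it in other settings. Without division by length, the change in share was −2.89 points for Eif2ak1 at 48 hours and −6.45, 3.76, −2.26 and 4.94 points for Eif2ak1, Eif2ak2, Eif2ak3 and Eif2ak4 at 7 days. With the union of exons, chosen after seeing the data, it was −2.14 points for Eif2ak3 at 48 hours and −5.52, 5.80, −3.06 and 2.78 points for the 4 at 7 days. With 1 library left out, shares were tested by the absolute difference of means, a test chosen after seeing the data. The change at 48 hours was −3.89 to −2.39 points for Eif2ak1 and 2.55 to 4.68 points for Eif2ak2, both past the threshold without sorafenib for 48 hours replicate 2 (adjusted exact p = 0.0381), and −1.65 to −1.12 points for Eif2ak3, past it without DMSO for 48 hours replicate 2 (−1.65, adjusted exact p = 0.0457). In both cases the 4 shares at 7 days passed too. Of the 80 values at the time point of the library left out, the other 77 stayed on their side of it. The 7-day shares without a 48-hour library are not among these 80.

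With the replicate number as a block, 4 members rose and 2 fell at 48 hours, with Eif2b4 lost (−0.13, FDR 0.0794), and no other member call changed. All-gene calls were 10644 at 48 hours, 11027 at 7 days and 6987 for the interaction. Same-numbered DMSO and sorafenib libraries had a mean correlation of deviations of −0.01 (−0.00748) at 48 hours and 0.0751 at 7 days, and 2 of 8 DMSO libraries correlated best with their own number, so the numbers were not taken as pairs. With 404 or more counts per library, counting error alone gives a coefficient of variation of 1.14 to 4.09% by member and group. The spread between replicates was 1.15 to 7.12%, apart from 18.9 and 20.8% for Eif2ak2 and Eif2b5 in sorafenib for 48 hours, and was above counting error in 34 of 40 cases.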
